A study of Mus musculus with 4 samples.

Results

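Wfdc2, Wfdc3 and Wfdc18 are 3 genes of the WAP family, named after whey acidic protein. They were followed in single-cell RNA sequencing of mouse ventral prostate. They are 3 of the 17896 genes listed in the count tables, and each was taken by its symbol. The genes were chosen because earlier results of these data showed them to differ between the groups, so their levels in te2 and sham are given as a description, with no test. Libraries came from 2 sham mice and 2 te2 mice, all C57BL6j with the genotype given as wt, whose prostates were collected 2 weeks after pellets were placed. Each library held the paired ventral lobes of 1 animal, and the labels give no ages. What the code te2 stands for is not given in the sources used here.

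WAP proteins are small and secreted, and carry 1 or more compact cores held together by paired cysteines. Some of them block serine proteases, which prostate epithelium and invading leukocytes release. Wfdc2, known in the clinic as HE4, is made by ductal and airway epithelia and is a serum marker of ovarian cancer in humans. Wfdc18, first described as extracellular proteinase inhibitor, is known from the involuting mammary gland of mice. Far less is known of Wfdc3.

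The coding sequences show what the 3 members share. Coordinates are those of the GENCODE annotation on GRCm38, which is an earlier build than the GRCm39 of the count tables. Wfdc2 (ENSMUSG00000017723.11) is annotated at chr2:164562413-164568510 on the plus strand. Wfdc3 (ENSMUSG00000076434.9) is on the same chromosome at chr2:164731180-164745931 on the minus strand, and Wfdc18 (ENSMUSG00000000983.13) is at chr11:83709015-83711348 on the plus strand. Their coding sequences hold 174, 130 and 74 codons, of which 18, 16 and 8 encode cysteine. Searching for the order and spacing of the cysteine codons of a WAP core found 2 cores in Wfdc2, 2 in Wfdc3 and 1 in Wfdc18. The cores follow from the first to the last cysteine codon, in frame, with the cysteine codons in capitals; each core holds 8 of them.
Wfdc2 core 1: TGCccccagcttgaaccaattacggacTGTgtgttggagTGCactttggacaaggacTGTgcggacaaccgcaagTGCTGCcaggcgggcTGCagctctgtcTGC
Wfdc2 core 2: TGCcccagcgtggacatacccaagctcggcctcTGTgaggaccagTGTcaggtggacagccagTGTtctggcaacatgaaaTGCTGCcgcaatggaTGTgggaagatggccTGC
Wfdc3 core 1: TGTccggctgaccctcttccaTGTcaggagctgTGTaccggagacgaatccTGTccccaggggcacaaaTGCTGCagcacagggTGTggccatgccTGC
Wfdc3 core 2: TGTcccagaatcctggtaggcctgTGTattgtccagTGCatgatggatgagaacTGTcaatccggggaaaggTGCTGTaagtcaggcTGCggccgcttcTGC
Wfdc18 core 1: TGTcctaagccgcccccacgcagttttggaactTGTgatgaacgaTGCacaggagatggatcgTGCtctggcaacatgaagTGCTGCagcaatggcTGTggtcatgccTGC

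The bases before each start site are shown because Wfdc3 and Wfdc18 were both higher in te2 than in sham in luminal, basal and proximal cells, while Wfdc2 overlapped between the groups in the proximal class. The sequences are the 250 bases before the RefSeq start on GRCm38.p6. They lie at chr2:164562465-164562714 on the plus strand for Wfdc2, chr2:164743268-164743517 on the minus strand for Wfdc3 and chr11:83708754-83709003 on the plus strand for Wfdc18. For Wfdc2 and Wfdc3 the window lies within the gene as GENCODE draws it. Capitals mark motif matches, searched on both strands.
Wfdc2 promoter: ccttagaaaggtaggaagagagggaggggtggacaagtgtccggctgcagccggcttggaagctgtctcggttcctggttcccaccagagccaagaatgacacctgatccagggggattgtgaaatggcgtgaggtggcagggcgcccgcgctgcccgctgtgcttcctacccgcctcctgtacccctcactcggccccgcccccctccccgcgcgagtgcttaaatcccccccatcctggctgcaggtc
Wfdc3 promoter: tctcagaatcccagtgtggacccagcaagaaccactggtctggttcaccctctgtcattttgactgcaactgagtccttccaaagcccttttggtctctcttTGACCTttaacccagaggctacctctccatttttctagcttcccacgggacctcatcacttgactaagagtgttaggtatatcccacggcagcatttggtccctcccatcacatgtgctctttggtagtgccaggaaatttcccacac
Wfdc18 promoter: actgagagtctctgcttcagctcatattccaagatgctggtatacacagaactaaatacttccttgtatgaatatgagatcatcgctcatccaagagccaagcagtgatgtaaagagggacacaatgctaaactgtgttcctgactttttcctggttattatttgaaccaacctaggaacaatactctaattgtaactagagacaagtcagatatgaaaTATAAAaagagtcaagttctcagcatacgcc

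The motifs searched were AGAACA, a unit of the androgen receptor element, AGGTCA, a unit of the estrogen receptor element, the TATA box TATAAA, and the full palindromic elements, in which a unit is followed by 3 bases of any kind and its own reverse complement. A full element therefore also contains its unit. Wfdc3 held 1 match to AGGTCA, on the reverse strand from base -148 to base -143 counted back from the start. The same motif occurred in 13.8% of the 27025 promoter windows in the RefSeq table. Wfdc18 held a TATA box from base -31 to base -26, a motif found in 13% of windows. None of the 3 windows matched AGAACA, which 16.2% of windows did, or the full androgen or estrogen receptor element, which occurred in 1 and 4 of all windows. The capitals show matching letters only, not bound sites.

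Cells were kept with at least 500 UMIs (unique molecular identifiers, each standing for 1 captured transcript) and at most 20% mitochondrial counts, which left 8091 of 11245. They were sorted into classes by the share of their UMIs from a few genes, taken in this order. Luminal cells had at least 10% from Sbp and Spink1, the secretory products of the ventral lobe. Basal cells had at least 0.2% from Krt5, Krt14 and Krt15, fibroblasts at least 0.3% from Col1a2, Col3a1 and Dcn, macrophages at least 0.3% from C1qa, C1qb and C1qc, and proximal cells at least 0.08% from Krt4, Cxcl17 and Cyp2f2. The 5 classes held 3226, 1368, 553, 294 and 1209 cells, and 1441 cells met no rule. Per library, luminal cells numbered 1057 and 1292 in sham and 392 and 485 in te2, and proximal cells 60 and 189 in sham and 577 and 383 in te2. Other markers of the class were highest in the class itself for 6 of 6 genes in basal cells, fibroblasts and macrophages and for 5 of 6 in the proximal class. Of the luminal markers, Msmb, Defb50 and Hoxb13 were highest outside the luminal class. In te2 the proximal class also carried luminal markers: Defb50 stood at 3662 and 4028 CPM there (counts per 1000000 UMIs of the class and library) against 2559 and 2995 CPM in the luminal class. The 6 check markers of the proximal class did not move together. The urethral marker Upk1b stood at 8.79 and 12.2 CPM in te2 against 170 and 143 CPM in sham. Psca stood at 611 and 519 CPM in te2 against 0 and 54.0 CPM in sham. Within te2, Psca was higher in the luminal class than in the proximal class, at 801 and 660 CPM. The summed level of the 6 markers in the proximal class was 1345 CPM in te2 against 1029.8 CPM in sham. The name proximal is therefore used for the rule, not for a settled cell type.

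The libraries differed in depth. The sham libraries summed to 3999690 and 5513275 UMIs and the te2 libraries to 12259610 and 13134017, and 15 of 11230 barcodes occurred in more than 1 library. Luminal transcripts were also counted in other classes: Sbp stood in macrophages at 13267 and 23489 CPM in sham and 947 and 4952 CPM in te2. Macrophages are therefore used below as the class that shows the background of the epithelial genes. All levels are CPM of the summed UMIs of a class, scaled by totals alone, and all log2 differences come from edgeR with TMM scaling unless stated.

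Wfdc3 had the highest level of the 3 genes over all kept cells of te2. In each of the 5 classes, the background class of macrophages included, both te2 libraries lay above both sham libraries. In te2 macrophages Wfdc3 was 0.046 and 0.025 times its level in all kept cells, beside 0.020 and 0.053 times for Sbp. In te2 fibroblasts it was 0.065 and 0.102 times, beside 0.025 and 0.029 times for Sbp. In luminal cells the Wfdc3 level was 223 and 322 CPM in sham and 4632 and 4303 CPM in te2. The difference came to 3.98 on the log2 scale. In the proximal class Wfdc3 stood at 46.3 and 35.2 CPM in sham, from 6 and 15 UMIs, and at 3652 and 3266 CPM in te2, a log2 difference of 6.53. As background to these counts, the luminal test covered 10976 genes, and at FDR 0.05 it called 32.1%, 18% as higher in te2 and 14.1% as lower. In the proximal class 11.2% of 10306 genes passed, 5.69% as higher and 5.56% as lower. These shares are printed for orientation, since the contrast itself chose the genes. They do not tell how many genes have both te2 libraries on the same side of both sham libraries.

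In basal cells Wfdc3 had 0 and 5 UMIs in sham, or 0 and 27.3 CPM, against 961 and 677 CPM in te2. Fibroblasts had 19.2 and 39.3 CPM in sham and 215 and 326 CPM in te2. In te2 replicate 1 a single fibroblast held 21 of the 45 Wfdc3 UMIs of its class, and in te2 replicate 2 another held 48 of 112. Macrophages had 14.8 and 38.7 CPM in sham and 151 and 78.5 CPM in te2. The groups did not overlap in any of these classes either. Of the genes tested in basal cells 7.71% passed, 4.94% as higher in te2 and 2.77% as lower. In fibroblasts 2.07% passed, 0.764% as higher and 1.3% as lower, and in macrophages 3.68%, 1.93% as higher and 1.75% as lower. In macrophages Wfdc3 did not pass the filter on low counts. There the ratio of te2 to sham was 4.92, with a counting interval from 1.60 to 24.5, since sham held 1 and 2 UMIs.

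**Figure D1:**
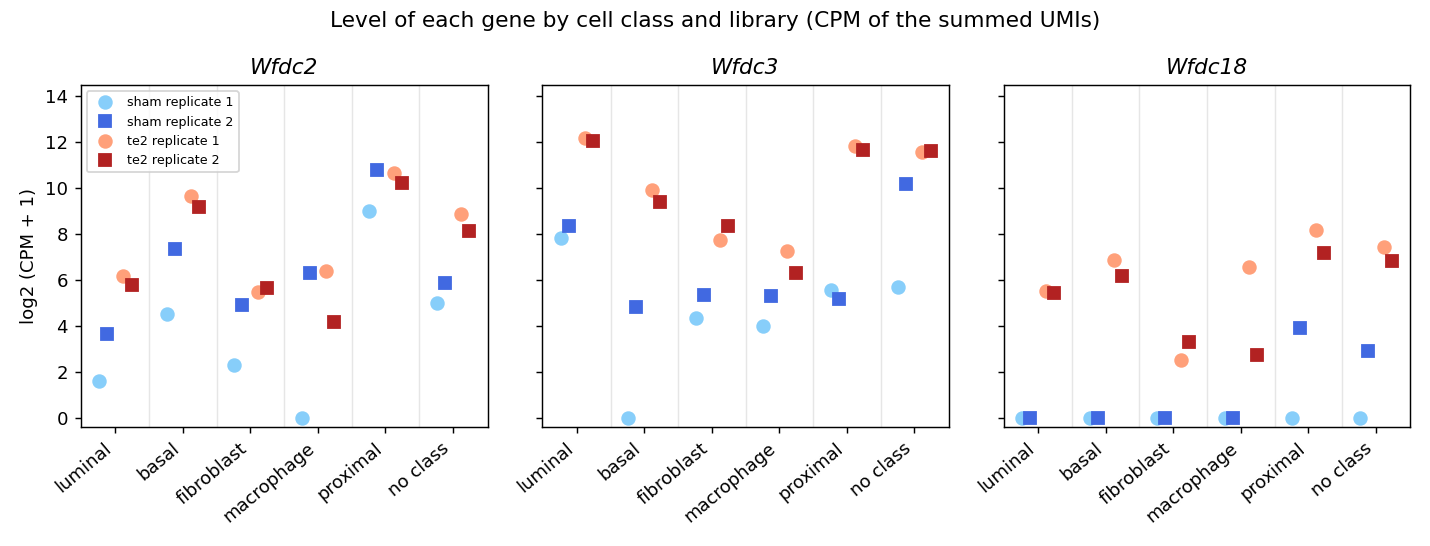
Level of Wfdc2, Wfdc3 and Wfdc18 in each cell class; the vertical axis is log2 of CPM plus 1 and each point is 1 library, pale and dark blue for sham and pale and dark red for te2. Wfdc3 points of te2 lie above those of sham in every class, Wfdc2 points overlap in the proximal and macrophage classes, and Wfdc18 is at 0 in sham outside the proximal class and the cells of no class.

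The share of cells with a Wfdc3 UMI was compared after each cell was thinned to 500 UMIs, because te2 cells held more UMIs each, with luminal medians of 8265.5 and 10359 against 1551 and 2455 in sham. In luminal cells it was 9.27% and 12.8% in sham and 84.2% and 80.6% in te2. In the proximal class it was 1.67% and 2.12% in sham and 69.5% and 64.0% in te2. Macrophages gave 0% and 3.51% in sham and 4.85% and 6.41% in te2. Both epithelial classes of te2 thus lay far above the background class, whereas the sham proximal class lay within its exact 95% intervals. For 0 of 56 sham macrophages the exact interval reaches 6.38%, and a floor of 3 counts allows up to 5.36%. Without thinning, 99.7% and 98.8% of te2 luminal cells held a Wfdc3 UMI, at median depths of 8265.5 and 10359 UMIs, against 20.4% and 15.4% of te2 macrophages at 2088 and 1874 UMIs.

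The order of the classes was tested by fitting all 20 class and library sums together with the library as a block. In sham, Wfdc3 was higher in luminal cells than in the proximal class by 3.69 ± 0.32 on the log2 scale (adjusted p = 1.86e-13). The ± value is the SE of the fit over all 20 sums, and the contrast covers 2 libraries. In it 17.6% of 8767 genes passed in either direction. The other sham classes, in the order proximal, fibroblast, macrophage and basal, did not differ beyond their error between neighbours, with adjusted p from 0.78 to 0.943. In the first 2 of those contrasts 24.6% and 14.6% of genes passed, and in the third 13.8%. In te2 the same luminal excess was 0.90 ± 0.18 (adjusted p = 0.000116), where 19% of genes passed. Scaling by totals alone lowered it to 0.35 (adjusted p = 0.0524), and without te2 replicate 2 it was 0.84 (adjusted p = 0.0716). The proximal class of te2 in turn exceeded basal cells by 2.25 ± 0.19 (adjusted p = 5.37e-15), basal cells exceeded fibroblasts by 1.38 ± 0.22 (adjusted p = 5.76e-07), and fibroblasts exceeded macrophages by 1.16 ± 0.29 (adjusted p = 0.00129). The last step was lost when called doublets were left out (0.66, adjusted p = 0.0809) or without te2 replicate 2 (0.28, adjusted p = 0.762). In these 3 contrasts 44.7%, 34.5% and 31.1% of genes passed. Between luminal cells and another class the median of all genes moved from -0.03 to 0.22 in te2 under TMM to -0.73 to -0.24 under totals, so the luminal excess of Wfdc3 over the proximal class lay above the median of all genes with either scaling.

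Along the share of Sbp and Spink1 in a cell, taken over luminal, proximal and unclassed cells, Wfdc3 of te2 differed less than 2-fold in each library. It stood at 3165 and 2991 CPM in cells with under 1% and at 5154 and 4722 CPM in cells with at least 40%. Sham replicate 1 had 0 and 221 CPM in the same bins, and sham replicate 2 had 964 and 236 CPM. Restricted to proximal cells with under 1%, the sham libraries had 0 and 0 Wfdc3 UMIs in 14 and 24 cells, and the te2 libraries had 3444 and 3024 CPM in 475 and 300 cells. In te2, proximal cells with at least 0.1% of UMIs from Defb50, a beta-defensin of the luminal secretion, held 4508 and 4434 CPM, and those below it 2727 and 2235 CPM. Sham proximal cells below that share held 42.1 and 30.1 CPM.

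The near edge of each class rule was also examined, within 20% of its threshold and with the libraries of a group summed. In te2, Wfdc3 stood at 4362 CPM just inside and 4768 CPM just outside the luminal rule, and at 3827 CPM just inside and 3171 CPM just outside the proximal rule. The basal threshold lay among cells rich in Wfdc2 and Wfdc3, while the summed level of Wfdc18 was higher on the outer side of it. Few cells held most Wfdc18 UMIs, as described below. How many of the cells beside the threshold made up its level was not counted. Just outside it, 73 te2 cells had 1827 CPM of Wfdc2, 2528 CPM of Wfdc3 and 888 CPM of Wfdc18. Just inside it, 53 te2 cells had 2390, 2645 and 82.6 CPM of the same genes in the same order.

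Sham replicate 2 held a small set of cells that were rich in Wfdc3. Of its 1793 Wfdc3 UMIs, 535 (29.8%) were in cells of no class, against 13 of 689 (1.89%) in sham replicate 1. Within them, 51 cells had at least 0.1% of their UMIs from Msmb, a secreted prostate protein, and carried 478 Wfdc3 UMIs at 2810 CPM. The remaining 170 unclassed cells had 193 CPM. Sham replicate 1 had 0 unclassed cells of that kind. The Msmb-rich unclassed cells of te2, 29 and 20 in number, had 5776 and 6674 CPM.

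Wfdc2 was highest in the proximal class in all 4 libraries, and there the groups overlapped. Its level was 517 and 1748 CPM in sham and 1600 and 1206 CPM in te2, so the first sham library was lowest and the second highest. The log2 difference of 0.24 turned to -0.31 without sham replicate 1 and to -0.01 without te2 replicate 1. Basal cells had 22.1 and 164 CPM in sham, from 1 and 30 UMIs, and 819 and 588 CPM in te2. Luminal cells had 2.02 and 11.5 CPM in sham and 70.4 and 54 CPM in te2. The groups did not overlap in basal or luminal cells, although the sham libraries differed from each other several-fold in both. As for Wfdc3, the share of all genes that separate in this way is not given here. Fibroblasts had 3.85 and 29.4 CPM in sham and 43.0 and 49.5 CPM in te2. Macrophages, with 0 and 77.5 CPM against 83.9 and 16.8 CPM, overlapped.

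The te2 luminal level of Wfdc2 was not separable from the background class with all cells in. After thinning, 4.08% and 3.09% of te2 luminal cells held a Wfdc2 UMI, beside 5.83% and 1.28% of te2 macrophages. The luminal excess over macrophages was 0.61 ± 0.30 on the log2 scale (adjusted p = 0.0976, 45% of genes passed). It was 0.16 under scaling by totals and reached 1.70 (adjusted p = 0.000141) when called doublets were left out, and 15 of the 25 macrophage UMIs of te2 replicate 1 lay in 1 cell. Without te2 replicate 1 the excess was 2.21 (adjusted p = 0.0151), and without te2 replicate 2 it was 0.06. In the proximal class 18.3% and 37.0% of sham cells and 44.2% and 36.0% of te2 cells held a Wfdc2 UMI after thinning.

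Between classes, the proximal excess of Wfdc2 over basal cells was 3.59 ± 0.25 on the log2 scale in sham (adjusted p = 3.3e-16) and 1.16 ± 0.11 in te2 (adjusted p = 1.21e-12). In these contrasts 14.6% and 44.7% of genes passed. Basal cells of te2 exceeded luminal cells by 2.80 ± 0.13 (adjusted p = 7.21e-25), a contrast in which 48.1% of genes passed. Below that the neighbours did not differ beyond their error: in sham the order was basal, macrophage, fibroblast and luminal, with adjusted p from 0.215 to 0.721, and in te2 macrophages and fibroblasts were last (adjusted p = 0.681). In the contrast of fibroblasts with luminal cells in sham 38.2% of genes passed. Over wider steps in sham, basal cells exceeded luminal cells by 3.04 ± 0.42 (adjusted p = 6.445e-08, 26.1% of genes passed) and fibroblasts by 2.59 ± 0.68 (adjusted p = 0.00612, 11.6% passed), while macrophages did not differ from luminal cells beyond their error (adjusted p = 0.219, 27% passed). Both basal steps were lost without sham replicate 2 (2.29, adjusted p = 0.5596, and 2.03, adjusted p = 0.7123) and in cells that met 1 rule only (1.53, adjusted p = 0.154, and 0.88, adjusted p = 0.6935). In te2, luminal cells exceeded fibroblasts by 0.90 ± 0.30 (adjusted p = 0.0129, 45.9% passed), a call lost under totals (0.33, adjusted p = 0.4271), with the luminal class last (0.60, adjusted p = 0.1172), in cells that met 1 rule only (0.73, adjusted p = 0.06723), and without te2 replicate 1 (0.68, adjusted p = 0.2808) or te2 replicate 2 (1.25, adjusted p = 0.0732).

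Basal Wfdc2 of te2 lay mainly in cells that met the proximal rule too, with 1022 of 1268 and 773 of 1003 UMIs. Of the 1368 basal cells, 754 met a further class rule. In te2, the 206 and 168 basal cells that also met the proximal rule had 1528 and 1358 CPM of Wfdc2, and the 385 and 405 that did not had 280 and 202 CPM. Wfdc3 split the same way, at 1634 and 1197 CPM against 449 and 417 CPM, and so did Wfdc18, at 226 and 186 CPM against 31.9 and 12.3 CPM. In sham replicate 2 the 37 such cells had 559 CPM of Wfdc2 and the other 123 had 49.3 CPM. Whether these are single cells with both programs or droplets with 2 cells was not tested. When cells that met more than 1 rule were left out, a choice made after seeing the data, the proximal excess over basal cells in te2 was 2.44 on the log2 scale (adjusted p = 1.23e-21).

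**Figure D2:**
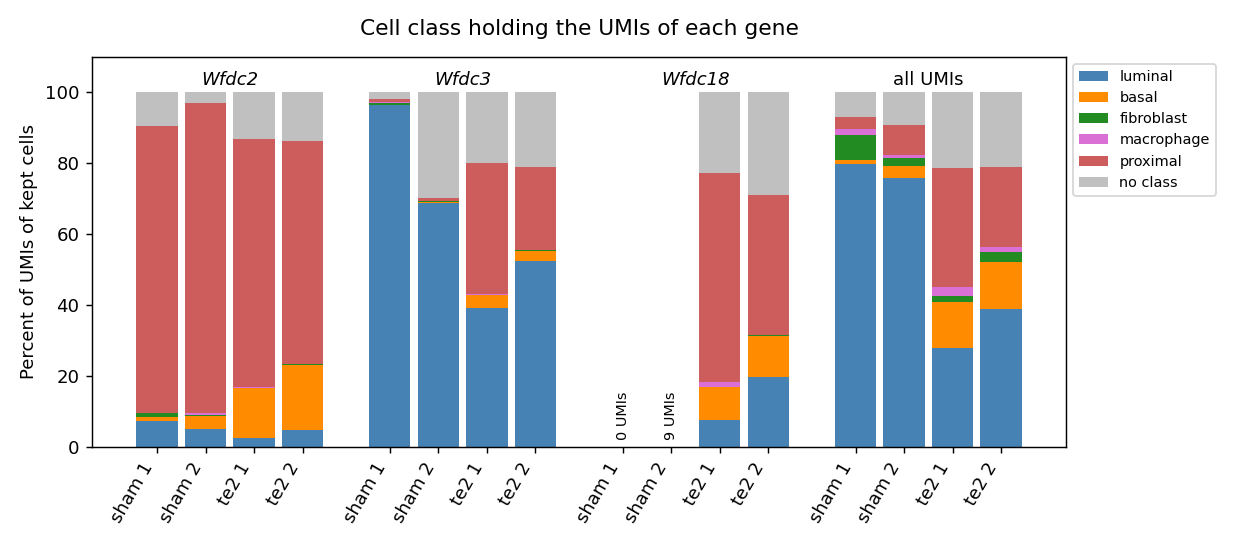
Share of each gene's UMIs that lay in each cell class; bars are libraries, colours are classes, and the last 4 bars give all UMIs of kept cells. Proximal cells held 62.9% to 87.3% of Wfdc2 UMIs in the 4 libraries. Luminal cells held 96.4% and 68.7% of Wfdc3 UMIs in sham and 39.1% and 52.5% in te2. Of all UMIs, luminal cells held 79.6% and 75.7% in sham and 27.9% and 38.8% in te2. The Wfdc3 level of luminal cells was 1.21 and 0.91 times that of all kept cells in sham and 1.40 and 1.35 times in te2.

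Over all kept cells Wfdc2 was higher in te2, although its level in the proximal class overlapped between the groups. The level over all cells was 95.4 ± 103 CPM in sham and 598 ± 234 CPM in te2 (mean ± SD, n = 2). In the sham libraries 80.7% and 87.3% of Wfdc2 UMIs lay in the proximal class, and in the te2 libraries 70.0% and 62.9%. Of all UMIs the class held 3.48% and 8.42% in sham but 33.4% and 22.6% in te2. More proximal cells and more transcripts per proximal cell both enter that share.

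In contrast to Wfdc3, Wfdc2 was low in cells with a large share of Sbp and Spink1. Over luminal, proximal and unclassed cells of te2 it went from 1467 and 1088 CPM in cells with under 1% to 112 and 89.7 CPM in cells with 10 to 20% and 17.0 and 9.02 CPM in cells with at least 40%. Sham replicate 1 had 471 CPM in cells with under 1%, 155 CPM in cells with 1 to 5% and 0 UMIs in cells with at least 40%. Sham replicate 2 was highest in the next bin, with 547 CPM under 1%, 1268 CPM at 1 to 5% and 13.4 CPM at 40% or more. No test was made along these bins, whose cells share libraries.

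**Figure D3:**
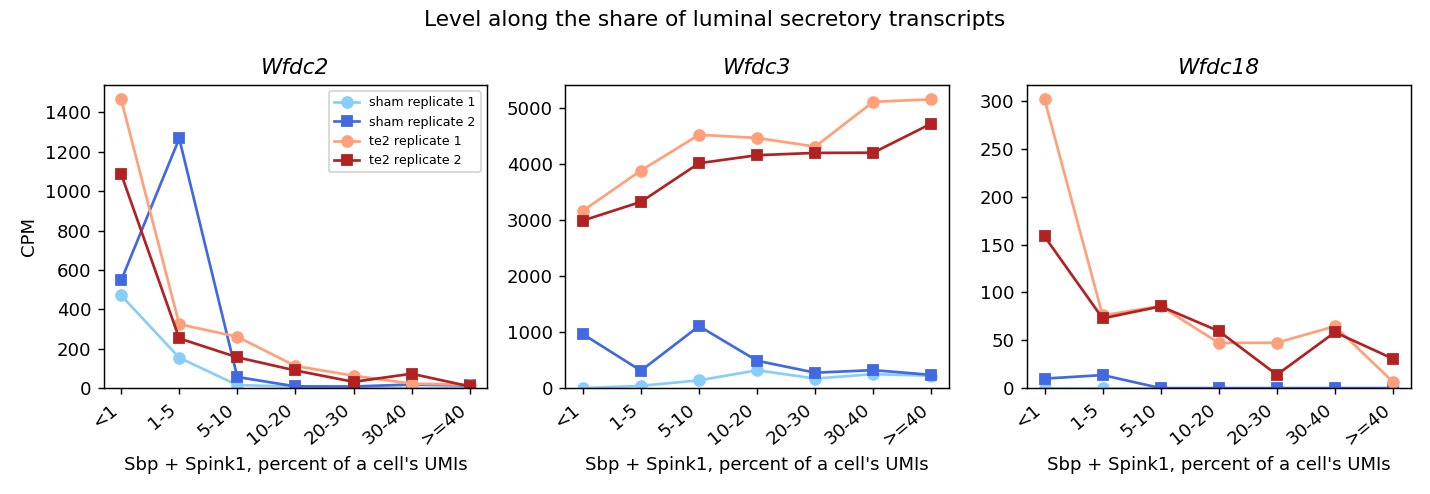
Level of each gene in CPM over luminal, proximal and unclassed cells grouped by the percent of their UMIs from Sbp and Spink1; each line is 1 library and bins with fewer than 20 cells are left out. Wfdc3 of te2 stays between 2991 and 5154 CPM, while Wfdc2 and Wfdc18 of te2 are highest in cells with under 1%.

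Wfdc18 was found almost entirely in te2. Over all kept cells there were 0 and 9 of its UMIs in the sham libraries against 1945 and 1045 in te2. It is not listed in the table of sham replicate 1, where genes seen in fewer than 3 cells were left out, so 0 there can stand for a few counts. In the proximal class its level was 0 and 14.1 CPM in sham, the latter from 6 UMIs, and 287 and 143 CPM in te2. Luminal cells had 0 UMIs in both sham libraries and 44.5 and 41.6 CPM in te2. A floor of 3 counts was set in sham replicate 2, the sham table that lists the gene. The te2 luminal level was 54.6 times that floor, which rests on 1 animal and on counting alone. Basal cells of te2 had 116 and 70.3 CPM where both sham libraries had 0 UMIs. Their level was 5.61 times a floor set in the same way. Fibroblasts of te2 held 1 and 3 UMIs. In macrophages of te2 there were 28 and 1 UMIs, of which 23 lay in 1 cell.

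Within te2, Wfdc18 was higher in the proximal class than in basal cells by 1.36 ± 0.16 on the log2 scale (adjusted p = 1.34e-09), and luminal cells exceeded fibroblasts by 3.08 ± 0.64 (adjusted p = 6.73e-05), where 45.9% of genes passed. Basal cells, macrophages and luminal cells, in the middle of the order, did not differ beyond their error. Basal cells exceeded macrophages by 0.48 ± 0.37 (adjusted p = 0.319, 38.2% of genes passed), by 2.70 without called doublets (adjusted p = 1.625e-05) and by 3.44 without te2 replicate 1 (adjusted p = 0.00905). After thinning, 5.55% and 6.01% of te2 proximal cells held a Wfdc18 UMI, against 0.971% and 0% of te2 macrophages and 2.30% and 1.03% of te2 luminal cells. The luminal shares lay within the exact 95% intervals of the macrophages, which reached 5.29% and 4.62%. The proximal shares lay above them, but their own intervals, 3.82% to 7.74% and 3.84% to 8.87%, overlapped those of the macrophages. These intervals cover the counting of cells within 1 library and do not test the classes.

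Wfdc18 was held by few cells. The top 10 cells of each te2 library carried 45.3% and 28.2% of its UMIs, and 13 and 36 cells were enough to hold 50% of them. One proximal cell of te2 replicate 1 held 257 UMIs. For Wfdc2 the top 10 cells carried 8.85% and 13.2%, and for Wfdc3 3.73% and 3.67%, with 50% of the UMIs in 301 and 250 cells. A Wfdc3 UMI was found in 66.9% and 62.1% of all kept te2 cells, and a Wfdc18 UMI in 14.4% and 13.5%.

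**Figure D4:**
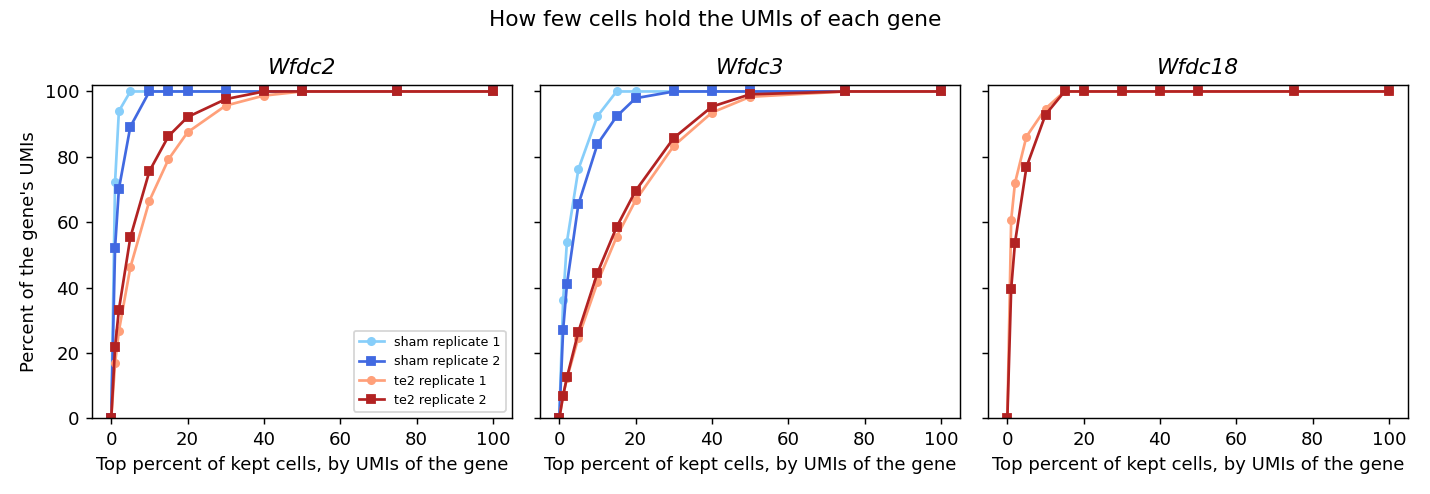
Percent of a gene's UMIs held by the top percent of kept cells ranked by UMIs of that gene; each line is 1 library, and Wfdc18 is drawn for te2 only. The top 1% of cells held 60.7% and 39.6% of Wfdc18 UMIs in te2.

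Within the te2 proximal class, Wfdc2 and Wfdc3 were highest in cells with different partner genes. Cells were ranked by CPM of a member in each te2 library, and the 144 and 95 highest cells were set beside as many of the lowest. These values are descriptions of cells within a library. The cells with most Wfdc2 had more Ltf, the iron-binding lactoferrin, at 133 and 152 CPM against 4.90 and 6.22 CPM. They also had more Krt15, a keratin of basal and progenitor cells, at 631 and 528 CPM against 132 and 80.8 CPM, and more of the peptidoglycan-binding protein Pglyrp1, at 397 and 342 CPM against 45.3 and 60.6 CPM. Spink1 was lower there, at 779 and 708 CPM against 13755 and 10373 CPM. Wfdc18 was higher there, at 638 and 180 CPM against 84.5 and 73.0 CPM, while Wfdc3 stood at 3773 and 2802 CPM against 4024 and 4131 CPM.

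The cells with most Wfdc3 had more Msmb, at 546 and 1208 CPM against 20 and 11 CPM, more Defb50, at 9174 and 10596 CPM against 767 and 345 CPM, and more Agr2, a protein-folding enzyme of secretory cells, at 2362 and 2538 CPM against 581 and 517 CPM. Ltf was lower there, at 15 and 18.2 CPM against 131 and 146 CPM. Wfdc18 was lower as well, at 47.5 and 43.5 CPM against 390 and 199 CPM. Wfdc2 stood at 1735 and 932 CPM against 1987 and 2095 CPM. Median depth was 5000 and 7425 UMIs in the high cells against 4434.5 and 4761 in the low ones, and its part in the contrast was not tested.

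**Figure D5:**
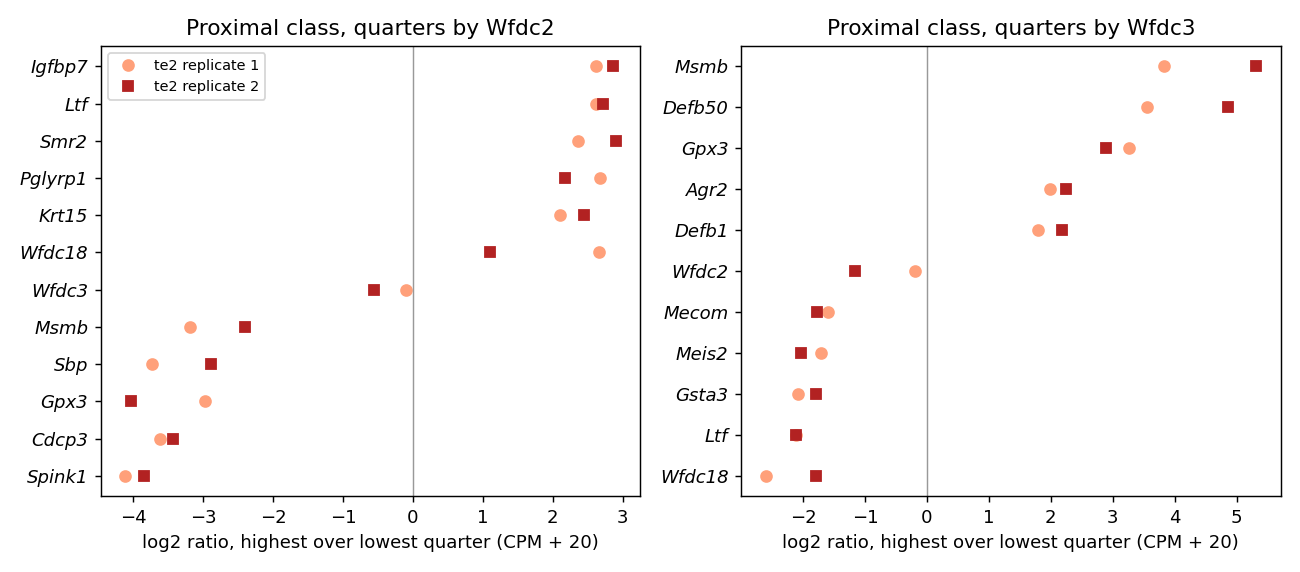
Genes with the largest log2 ratio between the highest and lowest ranked te2 proximal cells, 144 and 95 cells a side, ranked by Wfdc2 on the left and Wfdc3 on the right, with the other members added; circles and squares are the 2 te2 libraries. Ltf is on opposite sides in the panels, at 2.62 and 2.71 for Wfdc2 and -2.11 and -2.12 for Wfdc3.

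Cells holding 2 members were counted after thinning. In the te2 proximal class 176 and 78 cells held both Wfdc2 and Wfdc3, where the product of the shares gives 177 and 88.3. Wfdc2 and Wfdc18 were found together in 18 and 13 cells against a product of 14.1 and 8.29, and Wfdc3 and Wfdc18 in 17 and 11 cells against a product of 22.2 and 14.7. In basal cells Wfdc2 and Wfdc3 coincided in 34 and 22 cells against a product of 14.1 and 6.74, in the class where many cells also met the proximal rule.

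Over the 20 class and library sums, the genes most like each member were named by Pearson's r of log2(CPM + 1) among 9828 genes. Points share libraries and classes, so r is a description. For Wfdc2 they were Krt7, a keratin of ducts (r = 0.907), Ndufb2 of respiratory complex I (r = 0.906) and Cops6 of the signalosome (r = 0.904). For Wfdc3 they were the nuclear receptor coactivator Pnrc1 (r = 0.919), the mitochondrial thiolase Acaa2 (r = 0.910) and Ssr4 of the secretory translocon (r = 0.905). For Wfdc18 they were Smr2l (r = 0.941) and Smr2 (r = 0.924), genes of the submaxillary gland family whose copies are nearly identical, and Naca (r = 0.910). In the te2 proximal cells highest for Wfdc18, Smr2 stood at 1477 and 706 CPM against 540 and 276 CPM in the lowest, at median depths of 7266 and 8351 against 5415 and 7025 UMIs. Smr2 was not particular to Wfdc18. In the te2 proximal cells highest for Wfdc2 it stood at 1200 and 720 CPM against 217 and 79.3 CPM in the lowest. The log2 ratios were 2.37 and 2.90 by Wfdc2 and 1.42 and 1.30 by Wfdc18. For Wfdc3 and for Wfdc18, 1 further gene lay within 0.01 of the last r named. Among the members, r was 0.41 between Wfdc2 and Wfdc3, 0.65 between Wfdc2 and Wfdc18 and 0.76 between Wfdc3 and Wfdc18. These values pool groups between which the genes were chosen to differ. Over the sums of te2 alone the same pairs had r of 0.54, 0.85 and 0.63, and over those of sham alone -0.02, 0.60 and 0.017.

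Of 20 other WAP genes listed, 10 were in the tables, and most had few UMIs. Wfdc17, a WAP gene of mouse macrophages, stood at 2404 and 1975 CPM in sham macrophages and 3566 and 1654 CPM in te2 macrophages (log2 difference 0.29 ± 0.40, adjusted p = 0.73). It passed in luminal cells at 4.71 and 6.01 CPM in sham against 7.22 and 15 CPM in te2 (1.03 ± 0.37, adjusted p = 0.0492). That call was lost with DESeq2 (adjusted p = 0.281), with at most 10% mitochondrial counts (0.06045), with sums thinned to equal totals (0.06393), without called doublets (0.323), without sham replicate 1 (0.0909) and without te2 replicate 2 (0.702), and its log2 difference was -0.08 with class thresholds times 1.5. Wfdc15b fell in the proximal class from 15.4 and 32.9 CPM to 4.02 and 4.17 CPM (-2.76 ± 0.53, adjusted p = 0.00144), on 44 UMIs in all. It was lost without sham replicate 2 and without either te2 library, with adjusted p from 0.429 to 0.569. Slpi, the leukocyte protease inhibitor, had 185, 0, 81 and 51 UMIs in the macrophages of the 4 libraries, of which 183, 77 and 51 lay in 2 or fewer cells each, and it did not pass (-2.32 on the log2 scale, adjusted p = 0.165). With class thresholds times 1.5 the log2 difference of Slpi was 3.89 (adjusted p = 0.00837). It passed as lower in te2 without sham replicate 2 (-3.18, adjusted p = 4.302e-11), te2 replicate 1 (-2.28, adjusted p = 0.000451) or te2 replicate 2 (-2.25, adjusted p = 0.000138). Slpi is not listed in the table of sham replicate 2. Wfdc1, known from prostate stroma in rats, was found in fibroblasts with 5 UMIs in sham replicate 1 and 12 in te2 replicate 2. Wfdc12 is listed in the te2 tables only, with 25 and 31 UMIs. Eppin, a sperm-surface inhibitor, and Wfdc8, Wfdc13, Wfikkn1 and Wfikkn2 each had at most 9 UMIs in any library.

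Outside the WAP family, the other protease inhibitors listed rose more often than they fell in luminal and basal cells. The list was chosen with earlier results of these data known, so its counts are a description. Spink1, a secreted protease inhibitor that served in the luminal rule, was not among those listed, and its level was lower in te2. In luminal cells it stood at 112774 and 98901 CPM in sham and 96025 and 67197 CPM in te2. Basal cells, where luminal transcripts were also counted, had 18770 and 15090 CPM in sham and 1119 and 1514 CPM in te2. Of the 41 listed, 17 were tested in luminal cells, and 7 rose and 1 fell, where 18% of all genes tested rose and 14.1% fell. The median log2 difference of the list was 0.41 beside -0.01 over all genes. In basal cells 6 of 17 rose and 1 fell (median 0.86 beside 0.09), where 4.94% of all genes rose and 2.77% fell. Serpinb11, 1 of the 6, stood at 0 CPM in both sham libraries and at 29.1 and 22.9 CPM in te2. With sums thinned to equal totals, 2 genes of any kind were called in basal cells instead of 704. In the proximal class 4 of 14 rose and 1 fell (median 0.10 beside 0.03), where 5.69% and 5.56% of all genes did. In macrophages 1 of 5 rose although the median was -0.12 (0.03 over all genes, of which 1.93% rose), and in fibroblasts 0 of 14 passed in either direction (median 0.23 beside -0.01, with 2.07% of all genes called). Serpinb6a, an intracellular serpin, rose in luminal cells from 123 and 86.2 CPM to 247 and 268 CPM (1.25 ± 0.16, adjusted p = 7.51e-05) and in the proximal class from 77.1 and 108 CPM to 407 and 375 CPM (adjusted p = 1.74e-06). In basal cells the same gene passed at 1.42 ± 0.35 (adjusted p = 0.00583), but not without sham replicate 2 (adjusted p = 0.409), te2 replicate 1 (0.119) or te2 replicate 2 (0.0571). Serpinb11 rose in the proximal class from 23.1 and 7.05 CPM to 121 and 106 CPM (3.40 ± 0.40, adjusted p = 5.62e-06, and 0.0671 without sham replicate 2). Spink5, which restrains kallikreins in stratified epithelium, rose in basal cells from 1369 and 1135 CPM to 3477 and 2113 CPM (1.28 ± 0.29, adjusted p = 0.00306), a call lost without te2 replicate 1 (adjusted p = 0.177), with class thresholds times 1.5 (0.204) and with thinned sums (0.1455). Timp3, an inhibitor of metalloproteases, fell in basal cells from 397 and 420 CPM to 90.5 and 115 CPM (-1.96 ± 0.24, adjusted p = 1.47e-07, 0.0537 without sham replicate 2 and 0.05909 with thinned sums).

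Proteases, whose list was chosen in the same way, changed in both directions. Of 60 listed, 10 rose and 2 fell among 21 tested in luminal cells (median log2 difference 0.46 beside -0.01 over all genes), where 32.1% of all genes were called. Among 22 tested in the proximal class 5 rose and 2 fell (median 0.21 beside 0.03), where 11.2% of all genes were called. In basal cells 1 rose and 3 fell among 22 although the median was 0.46 (0.09 over all genes, of which 7.71% were called). In macrophages 4 of 11 rose (median 0.87 beside 0.03, 3.68% of all genes called), and in fibroblasts 1 of 18 rose (median 0.23 beside -0.01, 2.07% called). Ctrc, a chymotrypsin known from the pancreas, fell in luminal cells from 215 and 326 CPM to 58 and 68.9 CPM (-2.14 ± 0.18, adjusted p = 2.15e-06), and in the proximal class (-2.05 ± 0.19, adjusted p = 1.78e-07). Tmprss4, a membrane serine protease, rose in the proximal class from 7.71 and 11.7 CPM to 79.1 and 97.7 CPM (3.04 ± 0.41, adjusted p = 2.6e-05, and 0.0573 without sham replicate 2) and in luminal cells from 7.07 and 10.5 CPM to 35.8 and 38.2 CPM (adjusted p = 1.38e-05). Mmp7, the matrix protease of glandular epithelium, rose in luminal cells from 0.673 and 0.523 CPM to 9.92 and 13.7 CPM (4.23 ± 0.50, adjusted p = 3.08e-05), on 105 UMIs in all.

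In macrophages Ctsl, a lysosomal cathepsin, rose from 237 and 116 CPM to 3787 and 5658 CPM (4.70 ± 0.45, adjusted p = 0.000137). Ctsd rose from 579 and 407 CPM to 3001 and 2204 CPM (2.41 ± 0.37, adjusted p = 0.00312). The macrophage elastase Mmp12 rose from 59.4 and 0 CPM to 1185 and 510 CPM (4.68 ± 0.72, adjusted p = 0.00312). Cstb, which inhibits cathepsins, rose in the same cells from 208 and 252 CPM to 762 and 583 CPM (1.58 ± 0.36, adjusted p = 0.033), a call lost without te2 replicate 1 (adjusted p = 0.102), with the replicate number as a block (0.0645) and with sums thinned to equal totals (0.1004).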

How the data were processed

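Each deposited table gives, for 1 animal, raw UMI counts by gene and cell. Per the submitters' processing notes the authors worked with GRCm39 and with Seurat 5.0.1, R 4.3.2, bustools 0.39.4 and kallisto 0.46.1, whose roles are not given. Per the labels' protocols, libraries were made with a droplet kit that reads the 3' end of transcripts. The values show that each table lists genes seen in at least 3 cells, so a gene missing from a table was entered as 0.

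The members, gene lists and class rules were chosen with earlier results of these data known. Counts were summed per class and library. Te2 was tested against sham for the other genes in edgeR 4.0.16 (R 4.3.3) by its quasi-likelihood test (two-sided, filterByExpr, TMM, Benjamini-Hochberg over all genes tested, FDR 0.05). Class differences used 1 such fit over 20 sums with the library as a block, in 20 contrasts with 8 residual degrees of freedom. SE is the absolute log2 difference over the square root of F. The p-values of te2 against sham measure spread between 2 animals a group, pooled over genes. An exact permutation of 2 against 2 cannot go below 0.333. Those of the class differences measure the spread left between class sums after the library block, over the 20 sums of both groups. Intervals of cell shares are exact 95% binomial ones and cover counting error only. Of the inhibitor and protease lists the up to 4 called genes of smallest p per class, with at least 10 UMIs, could be named, and every WAP gene. For each member, the 3 genes of highest r with a mean of at least 10 CPM were named. Ratios between high and low cells used a pseudocount of 20 CPM. Scrublet in scanpy 1.11.5 called 97 cells (1.20%) doublets, which were kept except in an alternative. The edgeR code was tested on simulated counts. The named list genes were refitted under each alternative too. Alternatives were DESeq2 1.42.0, scaling by totals, no filter, each library left out, the replicate number as a block, thinned sums and other cell rules.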

Additional observations from a re-analysis of the deposited data

Results flagged for a closer look

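Cells that met none of the class rules were outside every test, and in te2 they held all 3 genes above the level of both sham libraries. The mean te2 level in these cells was 373 CPM for Wfdc2, from 466 and 281 CPM, against 31.1 and 57.9 CPM in sham. For Wfdc3 the mean was 3139 CPM, from 3088 and 3190 CPM, against 50.5 and 1148 CPM. For Wfdc18 it was 143 CPM, from 174 and 113 CPM, against 0 and 6.44 CPM. These cells held 21.4% and 21.1% of all UMIs in te2 and 6.89% and 9.22% in sham. The differences were not tested.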

How the results depend on the processing

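Of 992 values recomputed under alternatives, 853 were labelled as the same. Tested differences had to keep their direction and side of the threshold, and counts of called genes to stay within 1.5 times. Values of the members had to move within the replicate spread. On the log2 scale that spread was 0.38 for luminal Wfdc3 but 4.11 for basal Wfdc3, 2.05 for basal Wfdc2 and 3.51 for proximal Wfdc18. Large moves of the latter 3 therefore count as the same. The number of genes called in te2 against sham moved most. DESeq2 called 1662 genes in luminal cells (3520 with edgeR), 233 in basal cells (704), 417 in the proximal class (1159) and 45 in macrophages (80). Thinning all sums to the smallest total left 2 in basal cells, 314 in the proximal class and 22 in macrophages. Without a filter the count was 249 in fibroblasts (92 with it) and 183 in macrophages. In fibroblasts it was 142 with at most 10% mitochondrial counts, 56 with at least 1000 UMIs a cell, 152 with class thresholds times 1.5 and 143 with the luminal class taken last. Basal cells had 422 with thresholds times 1.5. With each library left out in turn, counts ranged from 2498 to 3235 in luminal cells, 145 to 369 in basal cells, 142 to 1265 in the proximal class, 107 to 211 in fibroblasts and 53 to 154 in macrophages.

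Fitting the replicate number as a block gave 442 calls in basal cells and 26 in macrophages and moved no other count by over 1.5 times. Of the 32 calls on named list genes it lost 3. Nothing in the labels pairs same-numbered animals, and the correlation of their deviations ran from -0.06 to 0.02 over the classes.

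With each library left out, the log2 difference of Wfdc2 ranged from -0.31 to 1.62 in the proximal class (-0.01 without te2 replicate 1), 2.11 to 5.33 in basal cells and 2.39 to 4.84 in luminal cells. Wfdc3 in the proximal class was 6.99 with thresholds times 1.5 and 5.48 with the luminal class last. Wfdc18 in te2 was 28.8 CPM in basal cells that met 1 rule only and 39.7 CPM in luminal cells with thresholds times 1.5. The te2 luminal excess of Wfdc3 over the proximal class was 0.35 under totals and ranged from 0.84 to 1.01 with libraries left out.

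Class steps among low levels changed sign. In te2, Wfdc18 macrophage minus luminal was 0.013 at 10% mitochondrial counts and 0.33 under totals, and ranged from -3.40 to 0.76 with libraries left out, as basal minus macrophage did from -0.048 to 3.44. Wfdc2 basal minus macrophage in sham was -0.26 in cells meeting 1 rule. Wfdc2 macrophage minus fibroblast in sham was -6.77 with thresholds times 1.5 and ranged from -5.32 to 1.26 with libraries left out. Macrophage minus luminal in sham was -6.22 with thresholds times 1.5 and ranged from -5.07 to 1.84. Wfdc2 macrophage minus fibroblast in te2 was -0.68 in cells meeting 1 rule, -0.75 with thresholds times 1.5 and -0.50 without doublets, and ranged from -1.53 to 1.19. Wfdc3 in sham was -0.42 for fibroblast minus macrophage with thresholds times 1.5 and -0.46 for macrophage minus basal with luminal last, and proximal minus fibroblast ranged from -0.045 to 1.19. Leaving libraries out of the class steps, and keeping only cells that meet 1 rule, were chosen after seeing the data. Of the same 32 calls, 13 were lost without sham replicate 2, 8 without te2 replicate 1, 7 without te2 replicate 2 and 3 without sham replicate 1, while scaling by totals lost 0. Thinning to equal totals lost 8 of the 26 it could refit. DESeq2 lost 1 of the 28 it gave an adjusted p. Ctrc in basal cells ranged from -1.98 to 0.14 with libraries left out, Wfdc17 from -2.10 to 1.13 in basal cells and from -0.39 to 0.79 in macrophages. The log2 difference of Wfdc17 was -0.076 in luminal cells and that of Slpi 3.89 in macrophages with thresholds times 1.5. The cause was not tested. At least 1000 UMIs a cell left 19 basal cells and 15 macrophages in the smallest library, so those classes and the class steps were not run there. Without sham replicate 2, Wfdc3 in basal cells and Wfdc18 in the proximal class had no sham counts and gave no fold.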
